A study of Mus musculus with 12 samples.

Results

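Expression of 10 genes of liver X receptor (LXR) signalling and sterol trafficking was compared in N2a cells, a mouse neuroblastoma line, given brain-derived extracellular vesicles (BDEVs) or vehicle. The genes, chosen by name, were the receptors Nr1h3 and Nr1h2, the exporters Abca1 and Abcg1, the endosomal proteins Npc1 and Npc2, and Lpcat3, Scarb1, Stard4 and Soat1. All 10 were found among the 24318 gene rows. Cells in the 3 groups received BDEVs of the SE group (SE-BDEV), BDEVs of the CON group (CON-BDEV) or vehicle (Vehicle), with 4 polyadenylated RNA libraries each. The title of the series gives SE as status epilepticus, a prolonged seizure, and the labels do not spell out CON. All libraries came from 1 transformed line, and no further treatment or genotype is given. Whether the 4 libraries of a group were separate cultures or vesicle preparations is not stated, so the p-values given reflect the spread among these libraries alone, and that spread may be technical.

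LXRs are nuclear receptors that bind oxysterols, which are oxidised forms of cholesterol, and act on DNA as partners of the retinoid X receptors. In cells laden with sterol they are known to raise transcription of genes for cholesterol export and phospholipid remodelling, while the SREBP2 system, which drives cholesterol synthesis and uptake, is held back. Cholesterol that enters by endocytosis leaves late endosomes through the NPC proteins, moves between membranes on carrier proteins such as Stard4, and is stored as esters made by Soat1. The comparison of the 3 groups asks whether the messenger RNAs of these genes differ in the way known for sterol-laden cells.

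Promoters of the genes the results turn on are shown here, where a RefSeq table of build GRCm38.p6 held them, as 250 bases before to 50 bases after the start of transcription on the gene's own strand. The table held 7 promoters of 6 of the 10 genes. Abca1 is shown because it carries the DR4 element through which LXR is known to act, and Lpcat3 and Npc2 because both had lower expression in BDEV cells. Capitals mark the DR4 match and a CACGTG match in Abca1 (chr4:53159846-53160145, minus strand), and CCAAT matches in Lpcat3 (chr6:124662854-124663153, plus strand) and Npc2 (chr12:84773063-84773362, minus strand), with ATTGG where the match lies on the other strand.
Abca1: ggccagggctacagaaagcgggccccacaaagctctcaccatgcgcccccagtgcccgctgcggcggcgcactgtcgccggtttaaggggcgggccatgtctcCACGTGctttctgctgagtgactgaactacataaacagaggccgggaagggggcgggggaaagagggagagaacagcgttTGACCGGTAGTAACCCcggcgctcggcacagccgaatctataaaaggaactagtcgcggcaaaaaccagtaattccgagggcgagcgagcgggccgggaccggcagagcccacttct
Lpcat3: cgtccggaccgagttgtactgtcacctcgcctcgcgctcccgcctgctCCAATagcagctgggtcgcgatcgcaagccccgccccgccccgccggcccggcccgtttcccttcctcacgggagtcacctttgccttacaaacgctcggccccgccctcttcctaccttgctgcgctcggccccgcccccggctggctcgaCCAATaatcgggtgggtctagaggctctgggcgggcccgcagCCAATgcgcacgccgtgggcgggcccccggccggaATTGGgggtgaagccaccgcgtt
Npc2: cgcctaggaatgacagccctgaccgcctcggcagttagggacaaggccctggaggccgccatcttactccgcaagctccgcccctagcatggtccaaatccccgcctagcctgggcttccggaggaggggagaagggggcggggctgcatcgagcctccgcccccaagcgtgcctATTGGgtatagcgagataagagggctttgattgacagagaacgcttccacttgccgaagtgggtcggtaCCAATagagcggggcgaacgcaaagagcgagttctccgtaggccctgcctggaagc
The DR4 match of Abca1 lay on the reverse strand, where it reads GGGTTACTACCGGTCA, at positions −67 to −52 counted from the start. The search pattern was written to admit this known element, so the match is no finding, and 0.472% of 32851 promoters in the table held such a match. CACGTG stood at positions −147 to −142 of Abca1 and in 7.15% of promoters. The pentamer CCAAT, searched on both strands like the other motifs, was found 4 times in Lpcat3 and 2 times in Npc2. It was found 1 time in Soat1 and 0 times in Abca1, Nr1h2 and Nr1h3. Of all promoters, 37.4% held at least 1 match, 11.7% at least 2 and 1.06% at least 4. The sterol response element form TCACNCCAC was in 1.24% of promoters and in 0 of these 7. These matches describe the letters of the windows. No binding was measured, and no link between matches and expression was tested.

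Cells given SE-BDEVs or CON-BDEVs had less mRNA for the sterol carrier gene Stard4, for Lpcat3 and for Npc2 than vehicle cells, with mean FPKM lower by 12.4% to 31.6%. The lipoprotein receptor gene Scarb1 fell in CON-BDEV cells, by 11.7% of the mean, and did not pass the test in SE-BDEV cells, where its mean was 12.1% lower. Neither receptor gene, nor Npc1 or Soat1, passed the test in either comparison, and Abcg1 was at or near 0 in every library. The LXR target Abca1 was higher in every BDEV library than in every Vehicle library without passing the test. Such a separation above Vehicle was seen for 5.77% of all genes tested in SE-BDEV and 5.68% in CON-BDEV. Of the 9 genes that could be tested, 0 rose in either comparison (limma, Benjamini-Hochberg adjusted p under 0.05), where 0.292% of all genes tested rose in SE-BDEV and 1.02% in CON-BDEV.

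Expression is given in FPKM, a fragment count scaled to transcript length and to a measure of library size, so levels of different genes can be set side by side. Each BDEV group was compared with Vehicle by limma on log2(FPKM + 1) over all genes whose mean was 1 FPKM or more, with Benjamini-Hochberg adjustment over all of them and a threshold of 0.05. Fold changes are on that log2 scale, which understates changes of low genes. Both comparisons use the same 4 Vehicle libraries, so their values stand side by side and are not independent of each other. In the numbering of the library names, SE-BDEV and CON-BDEV libraries alternate and all Vehicle libraries come after them. Any effect of that order cannot be told apart from the difference between BDEV and Vehicle cells. In bulk RNA, fewer cells that express a gene and less of its RNA per cell cannot be told apart.

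Library totals are not in the tables used here. Depth relative to Vehicle replicate 1, estimated from low FPKM values, was 0.78 to 0.932 in SE-BDEV, 0.772 to 0.869 in CON-BDEV and 0.905 to 1.0 in Vehicle, so that all Vehicle libraries were deeper than the BDEV libraries, SE-BDEV replicate 4 excepted. All 8 noradrenergic neuroblastoma markers reached 1 FPKM, and their summed level was 345 to 360 FPKM in SE-BDEV, 357 to 383 FPKM in CON-BDEV and 308 to 321 FPKM in Vehicle. Astrocyte markers summed to 0.744 to 1.02 FPKM in SE-BDEV, 0.64 to 0.855 FPKM in CON-BDEV and 0.99 to 1.14 FPKM in Vehicle, with 0 of 6 at 1 FPKM. Microglial markers, 1 of 8 at 1 FPKM, summed to 2.36 to 2.93 FPKM in SE-BDEV, 2.23 to 2.97 FPKM in CON-BDEV and 1.71 to 2.93 FPKM in Vehicle. Sums of the oligodendrocyte (3 of 6 at 1 FPKM, 16.8 to 19.9 FPKM), forebrain neuron (2 of 6, 9.34 to 11.7 FPKM) and endothelial lists (1 of 5, 1.84 to 2.91 FPKM) overlapped between all groups, and C1qb, Cldn5 and Neurod6 were listed at 0 in all 12 libraries. The part of depth and of the neuroblastoma and astrocyte sums, which move with the groups, in the results that follow was not tested.

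Levels of the 10 genes spanned a wide range in these cells. Over the 12 libraries the mean was highest for Scarb1 at 55.7 FPKM, followed by Npc2 at 33.6 FPKM, Nr1h2 at 22.3 FPKM, Lpcat3 at 20.8 FPKM, Stard4 at 17.6 FPKM and Npc1 at 12.7 FPKM. Soat1 at 7.10 FPKM, Abca1 at 2.62 FPKM, Nr1h3 at 1.68 FPKM and Abcg1 at 0.0212 FPKM made up the low end. Among genes at 1 FPKM or more, Scarb1 lay at percentile 85.0 and Nr1h3 at percentile 4.84. Neighbours in this order overlapped in their ranges over the 12 libraries for Nr1h2 and Lpcat3, for Lpcat3 and Stard4, and for Abca1 and Nr1h3, and the other neighbours were apart.

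**Figure D1:**
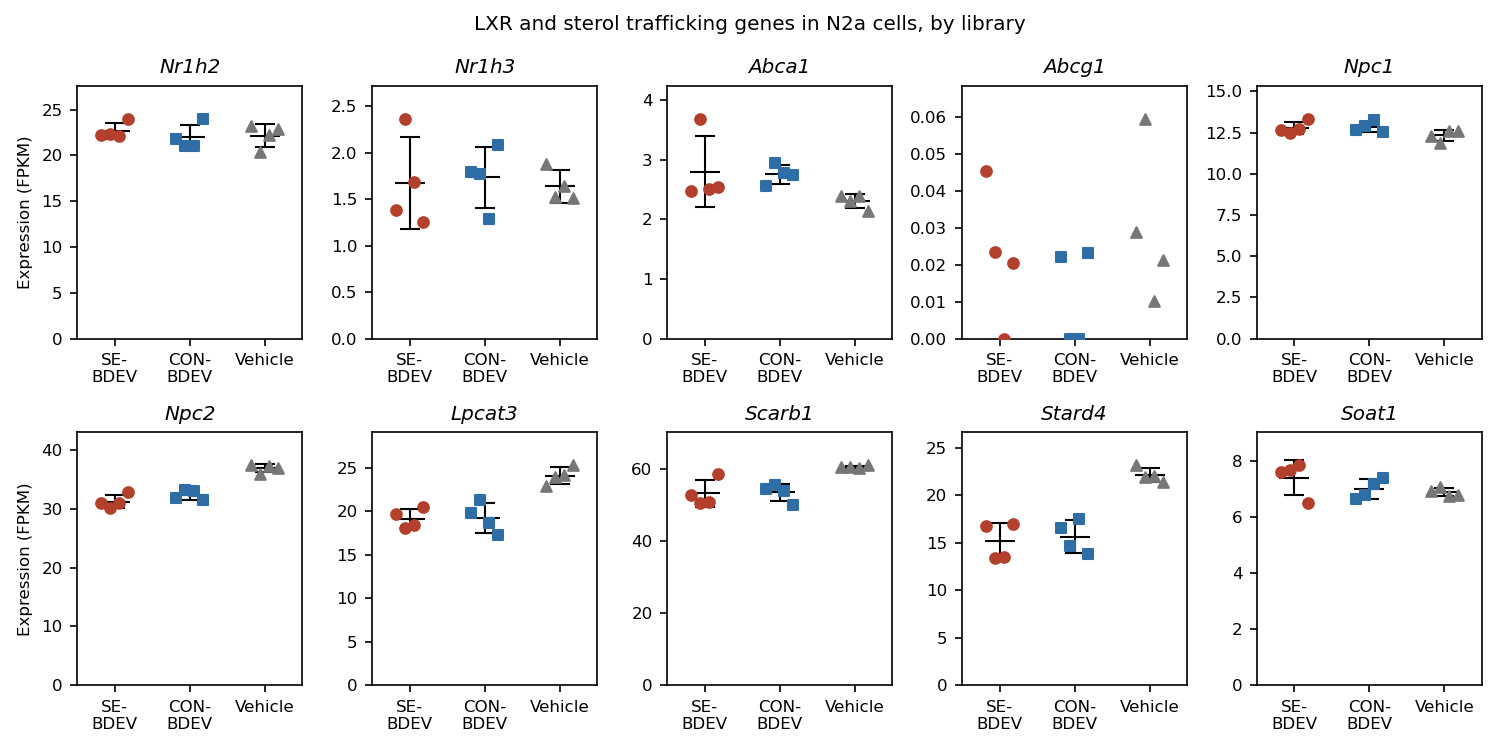
Expression in FPKM (linear axis from 0, one scale per panel) of the 10 genes in the 4 SE-BDEV, 4 CON-BDEV and 4 Vehicle libraries, one point per library in replicate order, with mean and SD as black bars except for Abcg1. Npc2, Lpcat3, Scarb1 and Stard4 lie below all Vehicle points in both BDEV groups, Abca1 lies above them, and the remaining panels overlap.

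Both receptors were expressed, and neither passed the test in either comparison. Nr1h2, which encodes LXR beta, the form expressed in most tissues (chromosome 7, 51804985 to 51809335 on mm9, the build of all gene positions given here), had 22.3, 22.4, 22.1 and 24.0 FPKM in SE-BDEV libraries, 21.8, 21.1, 21.0 and 24.0 FPKM in CON-BDEV libraries, and 23.2, 20.3, 22.2 and 22.8 FPKM in Vehicle libraries. The groups overlapped throughout. The log2 fold change of Nr1h2 was 0.034 ± 0.049 in SE-BDEV and −0.011 ± 0.052 in CON-BDEV (standard error; limma adjusted p = 0.789 and 0.931). Nr1h3, which encodes LXR alpha, best known from liver, gut, fat and macrophages (chromosome 2, 91024217 to 91035273), had 1.38, 2.37, 1.69 and 1.25 FPKM in SE-BDEV libraries, 1.80, 1.77, 1.29 and 2.09 FPKM in CON-BDEV libraries, and 1.89, 1.52, 1.64 and 1.51 FPKM in Vehicle libraries. The highest and the lowest of these 12 values were both SE-BDEV libraries. Its log2 fold change was 0.0028 ± 0.12 in SE-BDEV, with a 95% interval of −0.27 to 0.28, and 0.047 ± 0.10 in CON-BDEV, with an interval of −0.17 to 0.27 (limma adjusted p = 0.995 and 0.831). Nr1h2 was 14.5 ± 4.16 times as high as Nr1h3 in SE-BDEV, 13.0 ± 2.24 times in CON-BDEV and 13.6 ± 1.17 times in Vehicle (SD, n = 4 each).

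The exporters differed from each other in level more than between groups. Abca1, the membrane transporter that loads cholesterol and phospholipid onto lipid-poor apolipoproteins (chromosome 4, 53043660 to 53172767), had 2.47, 3.69, 2.51 and 2.54 FPKM in SE-BDEV libraries, 2.56, 2.95, 2.78 and 2.75 FPKM in CON-BDEV libraries, and 2.39, 2.31, 2.40 and 2.14 FPKM in Vehicle libraries. Every BDEV library was above every Vehicle library, the lowest SE-BDEV library by a small margin, and SE-BDEV replicate 2 stood far above the other 3 of its group. The mean was 21.1% higher in SE-BDEV, with a log2 fold change of 0.19 ± 0.10 and a 95% interval of −0.036 to 0.41 (limma adjusted p = 0.415). In CON-BDEV it was 19.4% higher, a log2 fold change of 0.18 ± 0.064 with an interval of 0.041 to 0.32 (limma unadjusted p = 0.0162, adjusted p = 0.154). Leaving out SE-BDEV replicate 2 brought the SE-BDEV fold change to 0.082 (limma adjusted p = 0.551). Among all genes tested, 5.77% lay wholly above Vehicle in SE-BDEV and 5.68% in CON-BDEV.

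Abcg1, the exporter known for passing cholesterol to high-density lipoprotein (chromosome 17, 31194638 to 31254926), was under the level at which genes were tested. It had 0.0455, 0.0234, 0 and 0.0206 FPKM in SE-BDEV libraries, 0.0222, 0, 0 and 0.0232 FPKM in CON-BDEV libraries, and 0.0289, 0.0595, 0.0101 and 0.0213 FPKM in Vehicle libraries. The groups overlapped, and no change of Abcg1 was detectable at this depth.

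The endosomal pair differed in what the comparisons showed: Npc2 fell in both and Npc1 passed in neither. Npc2, the soluble protein of the endosome lumen that hands cholesterol to Npc1 (chromosome 12, 86095508 to 86114062), had 31.0, 30.1, 31.0 and 32.8 FPKM in SE-BDEV libraries, 31.8, 33.2, 33.0 and 31.6 FPKM in CON-BDEV libraries, and 37.5, 36.1, 37.4 and 37.1 FPKM in Vehicle libraries. No BDEV library reached the lowest Vehicle library. Npc2 averaged 31.2 ± 1.14 FPKM in SE-BDEV, 32.4 ± 0.803 FPKM in CON-BDEV and 37.0 ± 0.636 FPKM in Vehicle (SD, n = 4 each). The log2 fold change was −0.24 ± 0.037 in SE-BDEV and −0.19 ± 0.030 in CON-BDEV (standard error; limma adjusted p = 0.0178 and 0.00989). With 1 library left out, the CON-BDEV call stood in 8 of 8 fits, while the SE-BDEV adjusted p was 0.0514 without SE-BDEV replicate 1 and 0.0814, 0.0595, 0.0703 and 0.0706 without Vehicle replicates 1 to 4. With every gene row tested, whatever its level, the adjusted p of Npc2 was 0.108 in SE-BDEV and 0.0387 in CON-BDEV. With the replicate number as a block in the fit, Npc2 passed in neither comparison.

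Npc1, the sterol exporter of the late endosomal membrane (chromosome 18, 12327238 to 12394895), had 12.6, 12.5, 12.7 and 13.3 FPKM in SE-BDEV libraries, 12.6, 12.9, 13.3 and 12.5 FPKM in CON-BDEV libraries, and 12.3, 11.8, 12.6 and 12.6 FPKM in Vehicle libraries. Its groups overlapped, and the log2 fold change was 0.049 ± 0.042 in SE-BDEV and 0.054 ± 0.038 in CON-BDEV (limma adjusted p = 0.625 and 0.476). The 95% intervals of Npc1, −0.044 to 0.14 in SE-BDEV and −0.030 to 0.14 in CON-BDEV, lay above the intervals of Npc2, −0.32 to −0.16 and −0.25 to −0.12. In the deposited coordinates the entry 3110002H16Rik covers all 67657 bases of the position given for Npc1. That position may be shared by both entries and not be the extent of Npc1 alone. Whether reads are shared was not tested, and the Npc1 values carry that uncertainty. The entry 3110002H16Rik had 11.4 ± 0.645 FPKM in SE-BDEV, 11.4 ± 0.444 FPKM in CON-BDEV and 11.6 ± 0.925 FPKM in Vehicle (SD, n = 4 each).

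Lpcat3, an enzyme that places polyunsaturated fatty acids into membrane phospholipids and a known LXR target (chromosome 6, 124613121 to 124662196), had 19.6, 18.1, 18.4 and 20.4 FPKM in SE-BDEV libraries, 19.8, 21.2, 18.6 and 17.3 FPKM in CON-BDEV libraries, and 22.9, 24.0, 24.2 and 25.2 FPKM in Vehicle libraries. Every BDEV library lay below every Vehicle library. Lpcat3 fell by 20.5% of the mean in SE-BDEV and by 20.2% in CON-BDEV, with log2 fold changes of −0.32 ± 0.048 and −0.31 ± 0.057 (standard error; limma adjusted p = 0.0178 and 0.0169). The SE-BDEV adjusted p was 0.0764, 0.0628, 0.0703 and 0.0700 without Vehicle replicates 1 to 4. In CON-BDEV it was 0.0514 without CON-BDEV replicate 3 and 0.0508, 0.0578 and 0.0575 without Vehicle replicates 2 to 4. With every gene row tested it was 0.129 in SE-BDEV and 0.13 in CON-BDEV. With the replicate number as a block in the fit, Lpcat3 passed in SE-BDEV and not in CON-BDEV. In the deposited coordinates Emg1 covers all 49075 bases of the position given for Lpcat3. That position may be shared by both entries and not be the extent of Lpcat3 alone. Whether some reads could belong to either gene was not tested. Emg1 had 79.3 ± 3.70 FPKM in SE-BDEV, 81.9 ± 4.44 FPKM in CON-BDEV and 78.0 ± 2.60 FPKM in Vehicle (SD, n = 4 each). Emg1 did not pass the test in either comparison (log2 fold change 0.024 and 0.070; limma adjusted p = 0.83 and 0.38).

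Scarb1, the receptor for high-density lipoprotein that takes up cholesteryl esters without taking in the particle (chromosome 5, 125757456 to 125821464), had 52.6, 50.6, 50.9 and 58.7 FPKM in SE-BDEV libraries, 54.3, 55.6, 53.9 and 50.0 FPKM in CON-BDEV libraries, and 60.6, 60.4, 60.2 and 60.9 FPKM in Vehicle libraries. All BDEV libraries lay below the narrow Vehicle range, with SE-BDEV replicate 4 nearest to it. The log2 fold change was −0.19 ± 0.046 in SE-BDEV and −0.18 ± 0.034 in CON-BDEV (standard error; limma adjusted p = 0.0969 and 0.0228). Without SE-BDEV replicate 4 the SE-BDEV fold change was −0.23 and passed (limma adjusted p = 0.0149). The CON-BDEV adjusted p was 0.0523 without CON-BDEV replicate 3 and 0.0715, 0.0670, 0.0667 and 0.0677 without Vehicle replicates 1 to 4. It was also above 0.05 with every gene row tested (0.102), without a variance trend (0.0605) and in the fit of 12 libraries (0.0857). The same held with the replicate number as a block in the fit.

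Stard4, a small soluble protein that carries sterol between membranes and whose gene is a known SREBP2 target (chromosome 18, 33361074 to 33373470), had the largest fold change of the 9 genes tested in both comparisons. It had 16.8, 13.3, 13.5 and 16.9 FPKM in SE-BDEV libraries, 16.6, 14.6, 17.5 and 13.8 FPKM in CON-BDEV libraries, and 23.1, 21.9, 22.0 and 21.4 FPKM in Vehicle libraries. The highest BDEV library was well below the lowest Vehicle library. Stard4 fell by 31.6% of the mean in SE-BDEV, with a log2 fold change of −0.53 ± 0.077 and a 95% interval of −0.70 to −0.36 (standard error; limma adjusted p = 0.0158). In CON-BDEV it fell by 29.3%, a log2 fold change of −0.48 ± 0.065 with an interval of −0.62 to −0.34 (limma adjusted p = 0.00379). The CON-BDEV call stood in 8 of 8 fits with 1 library left out, and the SE-BDEV adjusted p was 0.0764, 0.0595, 0.0703 and 0.0566 without Vehicle replicates 1 to 4. With every gene row tested the adjusted p of Stard4 was 0.14 in SE-BDEV and 0.0759 in CON-BDEV.

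Soat1, the enzyme of the endoplasmic reticulum that joins cholesterol to fatty acids for storage (chromosome 1, 158358238 to 158404459), had 7.62, 7.68, 7.85 and 6.49 FPKM in SE-BDEV libraries, 6.64, 6.79, 7.19 and 7.39 FPKM in CON-BDEV libraries, and 6.94, 7.07, 6.76 and 6.78 FPKM in Vehicle libraries. In SE-BDEV, 3 libraries were above all Vehicle libraries and replicate 4 was below them. The log2 fold change was 0.090 ± 0.060 in SE-BDEV and 0.020 ± 0.047 in CON-BDEV (limma adjusted p = 0.523 and 0.85).

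**Figure D2:**
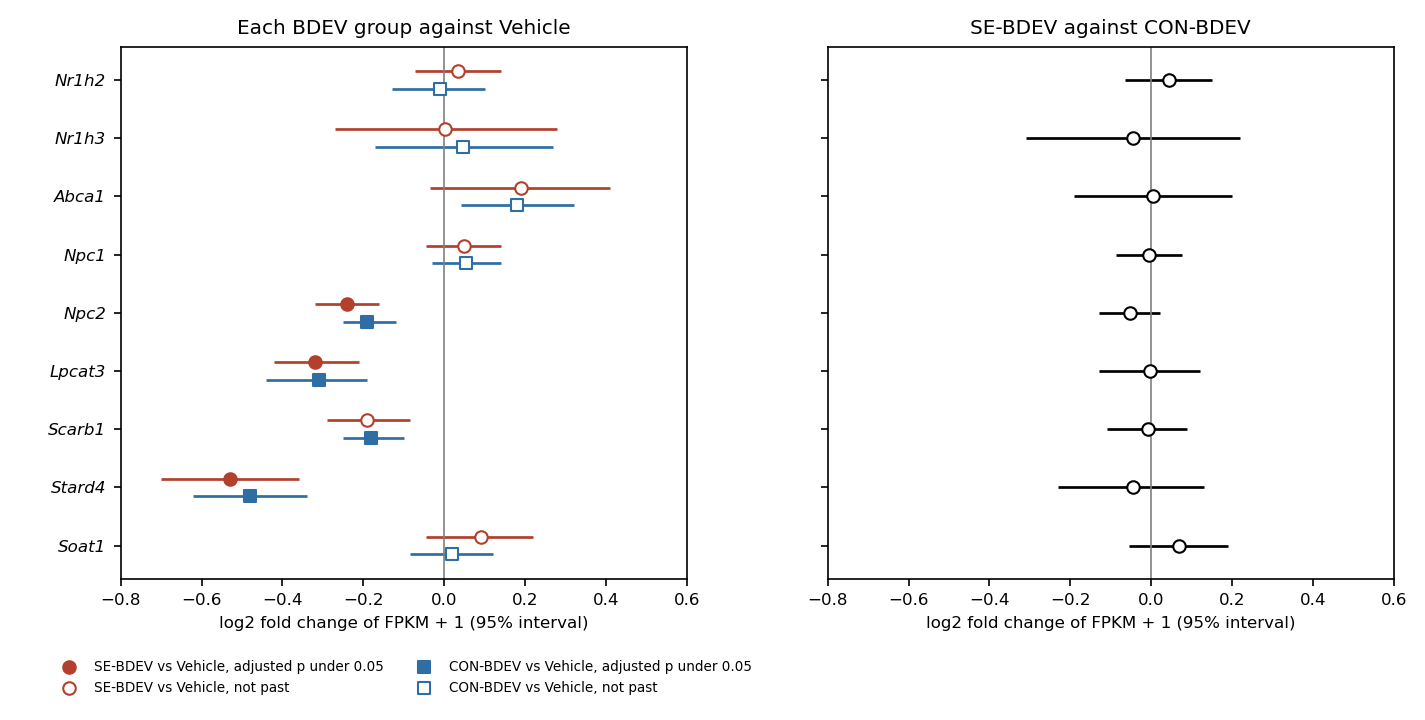
Log2 fold change of FPKM + 1 (x axis) for the 9 genes tested (y axis), with 95% intervals from limma, for SE-BDEV (circles) and CON-BDEV (squares) against Vehicle on the left and SE-BDEV against CON-BDEV on the right, filled where the adjusted p is under 0.05. Stard4, Lpcat3 and Npc2 are filled on the lower side in both comparisons with Vehicle and Scarb1 in CON-BDEV, while all 9 intervals on the right cross 0.

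The 10 genes and the further lists were chosen with earlier results of these data known. Their counts are therefore a description and no test of enrichment. Counted over the 10 genes, SE-BDEV had 3 lower, 0 higher and 6 not past the threshold among the 9 tested, where 0.628% of all genes tested were called lower and 0.919% in either direction. CON-BDEV had 4 lower, 0 higher and 5 not past among 9, where 1.82% of all genes tested were called lower and 2.84% in either direction. At an unadjusted limma p under 0.05, 0 of the 9 were higher and 4 lower in SE-BDEV, where 7.93% of all genes tested were higher and 6.89% lower. At the same p, 1 of the 9, Abca1, was higher and 4 were lower in CON-BDEV, where 9.58% of all genes tested were higher and 9.56% lower. Groups that did not overlap were seen for 4 of 9 on the lower side in each comparison, against 4.39% of all genes in SE-BDEV and 6.24% in CON-BDEV (10.2% and 11.9% in either direction). The median log2 fold change of the 9 was 0.0028 in SE-BDEV and −0.011 in CON-BDEV, beside 0.0094 and 0.0043 over all genes tested.

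In the authors' deposited table, made with Cuffdiff, 1 of the 10 genes was marked significant, and it was Stard4 in both comparisons (q = 0.00686 in SE-BDEV and 0.00505 in CON-BDEV). That table marked 1.17% of genes in SE-BDEV and 1.8% in CON-BDEV. The authors' deposited table gave Npc2 a q of 0.0695 in SE-BDEV and 0.118 in CON-BDEV, and Lpcat3 a q of 0.189 and 0.0803. Abca1 had a q of 0.131 in SE-BDEV and 0.0775 in CON-BDEV in the authors' deposited table, with log2 fold changes of FPKM of 0.28 and 0.26. Calls for Npc2, Lpcat3 and Scarb1 thus rest on the limma test and were not made in that table.

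Within each BDEV group, the 4 genes that lay below Vehicle had their lowest value in the same library. SE-BDEV replicate 2 had the lowest Npc2, Lpcat3, Scarb1 and Stard4 of its group, along with the highest Abca1 and Nr1h3. SE-BDEV replicate 4 had the highest Npc2, Lpcat3, Scarb1 and Stard4 of its group and the lowest Nr1h3 and Soat1. In CON-BDEV, replicate 4 had the lowest Npc2, Lpcat3, Scarb1 and Stard4. The lowest Vehicle value fell in a different library for each of these 4 genes. Insig1, a sterol sensor and SREBP2 target, was also lowest in SE-BDEV replicate 2, at 21.4 FPKM, and in CON-BDEV replicate 4, at 30.2 FPKM, and it ranged over 21.4 to 41.3 FPKM in SE-BDEV, 30.2 to 45.0 FPKM in CON-BDEV and 60.8 to 65.9 FPKM in Vehicle. Relative depth was 0.825 in SE-BDEV replicate 2 and 0.932, the highest of the BDEV libraries, in SE-BDEV replicate 4, and its part in these values was not tested.

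**Figure D3:**
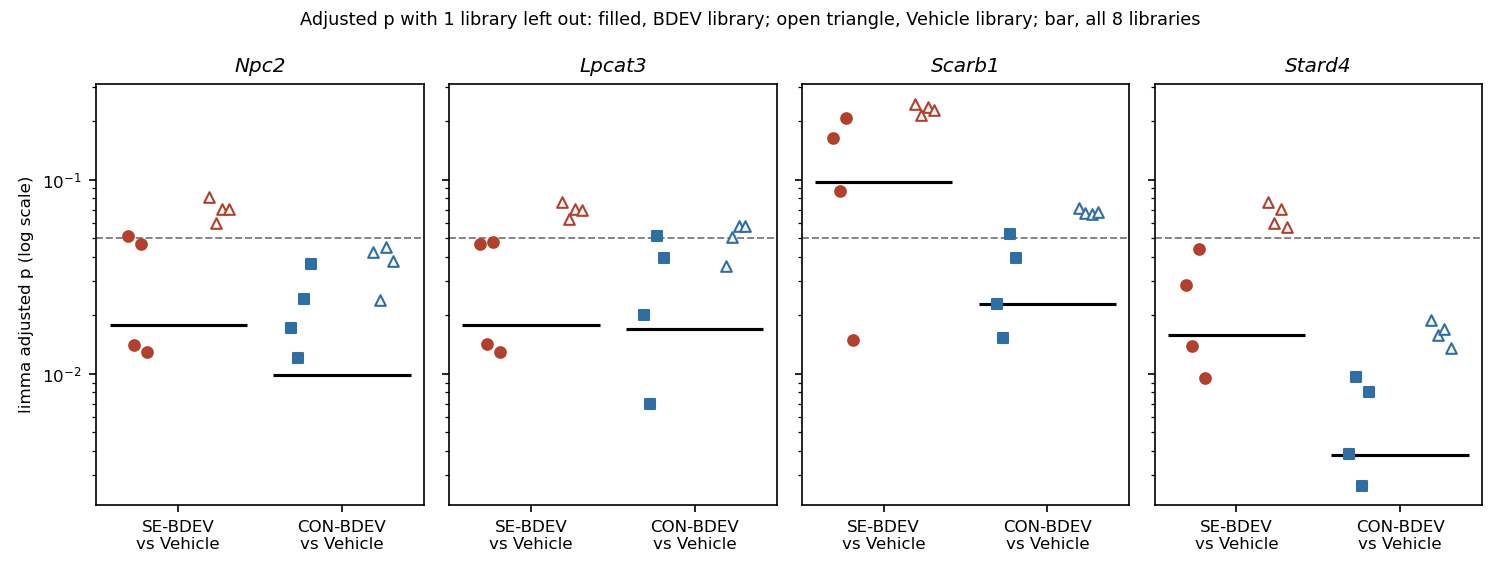
Limma adjusted p (log axis) of the 4 genes that were lower, with each library left out in turn: filled points leave out a BDEV library, open triangles a Vehicle library, the black bar uses all 8 libraries and the dashed line is 0.05. Stard4 and Npc2 stay under the line in all 8 CON-BDEV fits, and in SE-BDEV every fit without a Vehicle library lies above it.

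SE-BDEV was set directly against CON-BDEV with the 12 libraries fitted together, which crosses tables and rests on the Vehicle columns that both tables share. Of the 9 genes tested 0 passed, with log2 fold changes from −0.052 for Npc2 to 0.069 for Soat1 and unadjusted limma p from 0.149 to 0.963. Of all 11312 genes tested, 0.0% passed, and 296 had an unadjusted p under 0.05. The interval of the difference was −0.23 to 0.13 for Stard4, −0.13 to 0.12 for Lpcat3, −0.13 to 0.021 for Npc2, −0.11 to 0.090 for Scarb1 and −0.19 to 0.20 for Abca1. For Nr1h3 it was −0.31 to 0.22, the widest of the 9. SE-BDEV and CON-BDEV libraries overlapped for all 10 genes, where 1.39% of all genes tested did not overlap, 0.76% with SE-BDEV higher and 0.628% with SE-BDEV lower.

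Of 60 further genes of LXR signalling and sterol handling, 43 could be tested. For genes outside the 10, calls are given from the fit of all 8 libraries alone. In SE-BDEV 1 of the 43 fell and 0 rose, beside 0.628% and 0.292% of all genes tested, with a median log2 fold change of 0.022. In CON-BDEV 3 of the 43 fell and 0 rose, beside 1.82% and 1.02% of all genes tested, with a median of 0.0078. At an unadjusted limma p under 0.05, 4 of the 43 were higher and 3 lower in SE-BDEV, where 7.93% of all genes tested were higher and 6.89% lower. In CON-BDEV 4 were higher and 5 lower, where 9.58% of all genes tested were higher and 9.56% lower. The LXR partners and corepressors, which include the retinoid X receptors Rxra and Rxrb and the corepressor Ncor1, had 4 of 5 tested and 0 past in either comparison, with medians of 0.062 in SE-BDEV and 0.039 in CON-BDEV. Rxrg was listed at 0 in all 12 libraries.

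Other LXR targets had 8 of 13 tested, of which 1 fell in SE-BDEV, where 0.628% of all genes tested fell, and 2 in CON-BDEV, where 1.82% fell. Scd1, the stearoyl-CoA desaturase gene that answers to both LXR and SREBP1, had 6.69, 4.98, 5.81 and 6.60 FPKM in SE-BDEV libraries, 6.40, 6.38, 6.93 and 5.46 FPKM in CON-BDEV libraries, and 8.69, 8.55, 9.43 and 9.05 FPKM in Vehicle libraries. Scd1 was lower in every BDEV library and fell in both, with log2 fold changes of −0.51 ± 0.079 in SE-BDEV and −0.45 ± 0.064 in CON-BDEV (standard error; limma adjusted p = 0.0178 and 0.0046). Srebf1, which encodes SREBP1 and is itself an LXR target, averaged 67.3 ± 8.25 FPKM in SE-BDEV, 71.2 ± 4.55 FPKM in CON-BDEV and 82.7 ± 1.35 FPKM in Vehicle (SD, n = 4 each). It fell in CON-BDEV with a log2 fold change of −0.21 (limma adjusted p = 0.0252) and did not pass in SE-BDEV at −0.30 (limma adjusted p = 0.0788).

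Mylip, an LXR target whose product marks lipoprotein receptors for breakdown, averaged 7.14 ± 0.892 FPKM in SE-BDEV, 6.94 ± 0.937 FPKM in CON-BDEV and 7.48 ± 0.216 FPKM in Vehicle (SD, n = 4 each), with log2 fold changes of −0.065 and −0.10 (limma adjusted p = 0.727 and 0.491). Apoe, the main apolipoprotein of the brain, averaged 9.47 ± 2.04 FPKM in SE-BDEV, 9.05 ± 0.550 FPKM in CON-BDEV and 8.48 ± 1.07 FPKM in Vehicle (SD, n = 4 each), with log2 fold changes of 0.13 and 0.090 (limma adjusted p = 0.674 and 0.56). Neither gene separated the groups. Arl4c, a small GTPase gene and known LXR target, ranged over 0 to 0.0557 FPKM in SE-BDEV, 0 to 0.0833 FPKM in CON-BDEV and 0 to 0.0447 FPKM in Vehicle and was not tested.

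Carriers, enzymes and receptors around the 10 genes gave 1 call, lower in CON-BDEV, where 1.82% of all genes tested were called lower. In either direction, 2.84% of all genes tested were called in CON-BDEV and 0.919% in SE-BDEV. Other endosomal and lysosomal sterol genes had 7 of 8 tested and 0 past, with a median log2 fold change of 0.022 in SE-BDEV and 0.0057 in CON-BDEV. Other sterol transfer proteins had 14 of 16 tested and 0 past, with medians of 0.017 in SE-BDEV and 0.0075 in CON-BDEV. Enzymes of sterol esters and oxysterols had 4 of 8 tested and acyltransferases of the LPCAT and MBOAT kind 4 of 6, with 0 past. Of 4 other lipoprotein receptor genes, 2 could be tested. Lrp8, a receptor for apolipoprotein E and reelin in neurons, averaged 12.1 ± 1.19 FPKM in SE-BDEV, 11.7 ± 0.415 FPKM in CON-BDEV and 13.5 ± 0.311 FPKM in Vehicle (SD, n = 4 each). Its fold change passed in CON-BDEV at −0.19 (limma adjusted p = 0.0294) and not in SE-BDEV at −0.15 (limma adjusted p = 0.304).

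Known SREBP2 targets serve as a measure of the opposite arm of sterol control. Of 6 such genes 5 were tested, and 4 fell in SE-BDEV and 5 in CON-BDEV, beside 0.628% and 1.82% of all genes tested, with medians of −0.68 and −0.59. This list too was chosen with earlier results of these data known, so its counts test no enrichment. Its calls are also from the fit of all 8 libraries. Without any 1 Vehicle library, SE-BDEV gave 5 to 16 genes over all genes tested in place of 104, and CON-BDEV 134 to 163 in place of 321. Hmgcs1 was listed at 0 in all 12 libraries and is not read as unexpressed. Insig1 had log2 fold changes of −0.92 and −0.77 in SE-BDEV and CON-BDEV (limma adjusted p = 0.028 and 0.0044). Idi1 and Sqle, enzyme genes of cholesterol synthesis, fell in both: the log2 fold change of Idi1 was −0.68 in SE-BDEV and −0.57 in CON-BDEV (limma adjusted p = 0.0229 and 0.00419), and that of Sqle was −0.48 and −0.47 (limma adjusted p = 0.0204 and 0.00279). Stard4, at −0.53 and −0.48, was the member of the 10 genes nearest to these values.

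**Figure D4:**
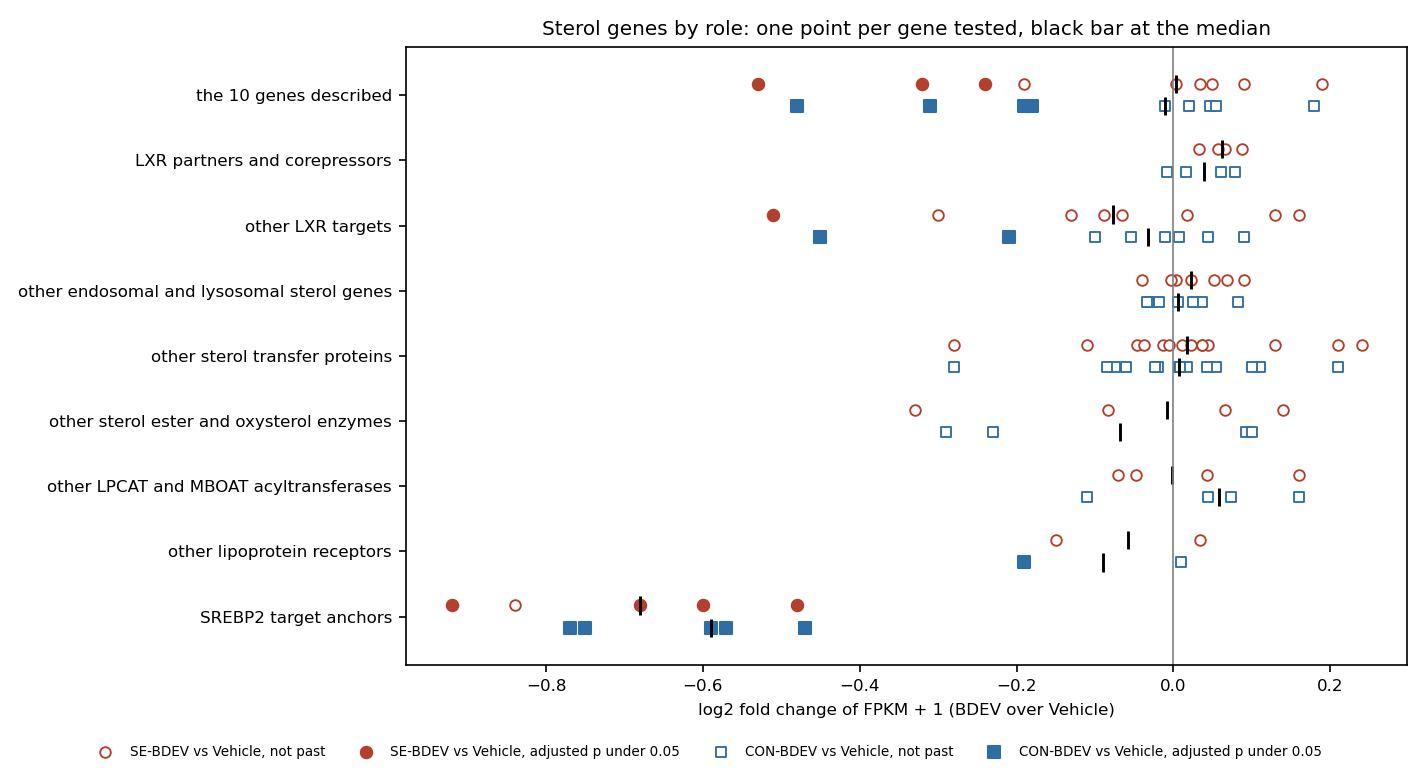
Log2 fold change of FPKM + 1 (x axis) of every tested gene in each list of sterol genes (y axis), for SE-BDEV against Vehicle (circles) and CON-BDEV against Vehicle (squares), filled where the limma adjusted p is under 0.05, with the list median as a black bar. The SREBP2 targets lie between −0.92 and −0.47, while the medians of the other lists lie between −0.09 and 0.062.

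For each of the 4 genes that were lower, the genes with the most alike pattern over the 12 libraries were found by the mean absolute difference of log2(FPKM + 1), centred per gene, among 11311 genes. For Stard4 these were Slc25a1, Sqle and Scd2, with differences of 0.0406, 0.0471 and 0.0485. Npc2 was nearest to Fbxl20, Hsd17b12 and Lgals1, at 0.0249, 0.0281 and 0.0292. Lpcat3 was nearest to Stk32c, Sept5 and Dusp10, at 0.0431, 0.0440 and 0.0515. Scarb1 was nearest to Crmp1, Cdkn2a and Bscl2, at 0.0293, 0.0298 and 0.0316. The libraries share their group means, so likeness here includes the difference between groups.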

How the data were processed

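Polyadenylated RNA of 12 N2a libraries was sequenced, per the labels' protocols, after a column RNA kit and a library kit that keeps the strand. The authors made the FPKM values using TopHat2 and Cuffdiff with build mm9, per the submitters' processing notes. Versions, annotation, read filters and strand setting: not given in the sources used here. One deposited table holds SE-BDEV and Vehicle, the other CON-BDEV and Vehicle; the authors' comparison tables give, per the file headers, group FPKM, log2 fold change, a test score, p-value and q-value. The Vehicle columns differed between tables by a factor within 0.0336% of 1, with single genes off it by at most 0.116%, so both were treated as 1 scale and averaged for the fit of 12 libraries. Of 24318 rows, 100 held several gene names.

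Here log2(FPKM + 1) was fitted with limma 3.58.1 in R 4.3.3 (empirical Bayes with trend, two-sided), over 8 libraries for each comparison with Vehicle and 12 for SE-BDEV against CON-BDEV. Only genes averaging 1 FPKM or more entered the test. Every adjusted p of a gene is from limma. Across genes, r between libraries of a group was 0.990 to 0.997. Relative depth was read from genes under 0.1 FPKM; intervals cover the spread between libraries only. The script was tested on simulated data. The alternatives were a pseudocount of 0.1, no filter, a filter of 5 FPKM, median scaling, no trend, a replicate block, another set of libraries in the fit, and leaving out each library.

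The 10 genes and the other lists were chosen with earlier results of these data known. Named beside the 10 were genes of the other lists past the threshold against Vehicle, Mylip, Apoe, Srebf1, Arl4c and Insig1 whatever their values, and for each of the 10 past the threshold the 3 most alike genes. Some genes the rule names are not reported here. Plots used matplotlib 3.10.9 (Python 3.11.15).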

Additional observations from a re-analysis of the deposited data

Results flagged for a closer look

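Values were examined in 63 groups of 4 libraries over 21 genes, for a highest or lowest library whose gap to its neighbour, as a share of the group's whole range, passed Dixon's 95% critical value. Chance gives such a gap in about 1 of 20 groups, and 4 were found, all in SE-BDEV. Abca1 was 3.69 FPKM in SE-BDEV replicate 2, against 2.47 to 2.54 FPKM in the other 3 libraries of the group, a gap of 0.943 of the range. Lrp8 was 10.3 FPKM in the same library, against 12.6 to 12.8 FPKM in the others (0.946). Nr1h2 was 24.0 FPKM in SE-BDEV replicate 4, against 22.1 to 22.4 FPKM (0.849), and Soat1 was 6.49 FPKM there, against 7.62 to 7.85 FPKM (0.834).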

How the results depend on the processing

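Of the log2 fold changes of the 9 genes refitted under other settings, 369 kept the direction and the side of the threshold, 34 lost the call, 1 gained it and 31 changed sign, all of the last among values that did not pass. Without a filter, which tests 24318 rows, SE-BDEV against Vehicle gave 4 genes in place of 104 and 0 of the 10 genes in place of 3, CON-BDEV against Vehicle gave 57 in place of 321 and 1 in place of 4, and SE-BDEV against CON-BDEV gave 1 in place of 0. The replicate block gave 48 and 135 genes against Vehicle, with 2 of the 10 genes in SE-BDEV, where Npc2 was lost (limma adjusted p = 0.0577), and 1, Stard4, in CON-BDEV, where Npc2 (0.0595), Lpcat3 (0.0595) and Scarb1 (0.0734) were lost. Same-numbered libraries correlated by −0.123 to 0.298. Apart from replicates 1 and 2 between the BDEV groups, none correlated best with its own number. The labels give no pairing, and with 4 libraries per group these values cannot decide whether the numbers pair the libraries. A fit of 12 libraries gave 171 and 133 genes, and no trend gave 183 in CON-BDEV. With 1 library left out, counts were 5 to 315 genes and 0 to 4 of the 10 genes in SE-BDEV, 134 to 556 and 2 to 4 in CON-BDEV, and 0 to 0 between BDEV groups. SE-BDEV gave 315 genes without SE-BDEV replicate 2, 55 and 50 without SE-BDEV replicates 1 and 3, and 5 to 16 without any 1 Vehicle library. CON-BDEV gave 556 without CON-BDEV replicate 1, 201 and 156 without CON-BDEV replicates 3 and 4, and 134 to 163 without any 1 Vehicle library.

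Signs turned for Nr1h3 in SE-BDEV with a pseudocount of 0.1 (−0.0068) and with median scaling (−0.0020), and for Abca1 between BDEV groups with median scaling (−0.0008). Leaving out 1 library, the ranges that crossed 0 were −0.0044 to 0.056 (Nr1h2) and −0.11 to 0.079 (Nr1h3) in SE-BDEV; −0.051 to 0.011 (Nr1h2), −0.013 to 0.13 (Nr1h3) and −0.0033 to 0.042 (Soat1) in CON-BDEV; and, between BDEV groups, −0.16 to 0.032 (Nr1h3), −0.10 to 0.044 (Abca1), −0.024 to 0.0090 (Npc1), −0.051 to 0.043 (Lpcat3), −0.056 to 0.014 (Scarb1) and −0.10 to 0.0076 (Stard4). The cause was not tested. Leaving out the filter adds tests and also changes the rows from which limma estimates the variance, and leaving out a library removes samples. Library totals are not in the tables, so counting error could not be given.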

Other observations

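The levels of the endosomal pair were also set against each other within each library, a comparison chosen after the values were seen. Npc2 was 2.44 ± 0.0223 times as high as Npc1 in SE-BDEV, 2.53 ± 0.0320 times in CON-BDEV and 3.00 ± 0.0550 times in Vehicle (SD, n = 4 each). The ratio ranged over 2.41 to 2.46 in SE-BDEV, 2.49 to 2.57 in CON-BDEV and 2.94 to 3.05 in Vehicle, so the 3 groups did not overlap. A two-sided exact permutation test gave p = 0.0286, the smallest that 4 libraries against 4 allow, for SE-BDEV against Vehicle, CON-BDEV against Vehicle and SE-BDEV against CON-BDEV. Adjusted over the 6 tests made on ratios, that p was 0.0572, so no ratio passed. The log2 difference was −0.30 for SE-BDEV and −0.25 for CON-BDEV against Vehicle, and −0.048 for SE-BDEV against CON-BDEV, where neither Npc2 nor Npc1 separated these groups by itself. The ratio of Nr1h2 to Nr1h3 gave exact permutation p of 0.857, 0.543 and 0.629 for the same comparisons.

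Outside the rule for named genes, 2 more were singled out after their values were seen. Lpcat1, a relative of Lpcat3 known from lung surfactant synthesis, averaged 23.6 FPKM in SE-BDEV, 23.6 FPKM in CON-BDEV and 21.0 FPKM in Vehicle. All BDEV libraries were above all Vehicle libraries, and the log2 fold change was 0.16 in both comparisons without passing (limma adjusted p = 0.122 and 0.0662). Lamp1, a membrane protein of lysosomes, was likewise above Vehicle in all BDEV libraries, at 304 FPKM in SE-BDEV, 302 FPKM in CON-BDEV and 285 FPKM in Vehicle (limma adjusted p = 0.217 and 0.0971). Such a gap above Vehicle was seen for 3 of the 43 further genes in each comparison. Over all genes tested the share was 5.77% in SE-BDEV and 5.68% in CON-BDEV.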
